A study of Mus musculus with 6 samples.

Results

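Interferon-stimulated genes, the genes that cells switch on after they sense an interferon, were followed through 6 RNA-seq libraries of cultured mouse bone marrow stromal cells (BMSCs). Members were the table rows whose gene symbol was on a list of 42 such genes. Of these, 40 had a row among the 18853 genes, and Mx1 and Mx2 were not analysed here. All 40 passed the filter on low counts that left 13696 genes for testing, and the smallest count of any member in any library was 5.

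The 3 wild-type (WT) libraries, replicates 10, 11 and 12, and the 3 HRP2-KO libraries, replicates 6, 7 and 44, came from BMSCs of WT and knockout mice kept in αMEM with 10% serum. HRP2, also named HDGFR2 and listed as Hdgfl2, is a PWWP-domain chromatin protein, and its loss is the only difference the labels give. The knockout allele, strain, age and passage are not given, and no interferon, infection or other treatment is named. Whether replicates are separate mice or separate dishes is not stated, and any p-value therefore reflects only how these 6 libraries scatter.

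Type I interferons bind the IFNAR1 and IFNAR2 receptor, whose kinases JAK1 and TYK2 phosphorylate STAT proteins. STAT2 and IRF9 belong to the complex ISGF3, which binds the interferon-stimulated response element (ISRE) in promoters. Interferon gamma acts on a different element, the gamma-activated site (GAS). Many of the induced genes are antiviral, and cells keep a low tonic level of many of them without infection.

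Promoter windows from RefSeq (build GRCm38.p6, 250 bases before to 50 after the start) were matched for 31 members, 4 of them with more than 1 window. The ISRE core, GAAA then any 2 bases then GAAA, searched on both strands with overlaps allowed, was in a window of 17 of the 31 (54.8%), against 3.83% of 10904 tested genes and 3.44% of all 32841 windows. The GAS motif TTCNNNGAA was in 9 of the 31 (29.0%), against 8.27% of the tested genes. The windows of Irf7, Ifi44 and Xaf1 held no ISRE match, which says only that these letters are not there. The 5 promoters below are shown because they span the ways the motif sits in members with different profiles. Each is the 150 bases before the start, 5′ to 3′ on the gene's own strand, and capitals mark the ISRE match on either strand.
Isg15, chr4:156200819-156200968, minus strand: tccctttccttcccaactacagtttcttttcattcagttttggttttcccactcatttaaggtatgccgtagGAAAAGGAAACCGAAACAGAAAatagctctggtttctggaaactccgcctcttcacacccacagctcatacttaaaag
Ifit1, chr19:34640739-34640888, plus strand: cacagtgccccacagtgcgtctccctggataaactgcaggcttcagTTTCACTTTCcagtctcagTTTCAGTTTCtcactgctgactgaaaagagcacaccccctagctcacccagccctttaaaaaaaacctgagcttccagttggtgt
Rsad2, chr12:26456453-26456602, minus strand: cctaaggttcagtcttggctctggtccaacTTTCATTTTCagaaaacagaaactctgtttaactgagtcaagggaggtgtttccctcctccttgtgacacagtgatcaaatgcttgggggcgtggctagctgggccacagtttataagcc
Gbp2, chr3:142620513-142620662, plus strand: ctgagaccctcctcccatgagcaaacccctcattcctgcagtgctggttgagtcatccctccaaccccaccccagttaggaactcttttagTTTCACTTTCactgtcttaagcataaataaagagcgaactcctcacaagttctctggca
Irgm1, chr11:48871421-48871570, minus strand: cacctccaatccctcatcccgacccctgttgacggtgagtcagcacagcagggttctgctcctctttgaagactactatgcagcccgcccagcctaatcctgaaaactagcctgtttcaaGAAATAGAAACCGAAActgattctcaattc
Isg15 had 3 overlapping matches starting 78 to 66 bases before the start, and Irgm1 had 2 overlapping matches at 30 and 24. Ifit1 had 2 separate matches at 104 and 85, and Rsad2 and Gbp2 had 1 each, at 120 and 59.

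The libraries were of nearly equal depth, with 20184499 to 20680773 estimated counts. TMM factors were lowest (0.906) for HRP2-KO replicate 7 and highest (1.07) for WT replicate 11. Levels below are estimated counts in the order WT 10, 11, 12 and HRP2-KO 6, 7, 44, and ratios use CPM (counts scaled to a common library total) after TMM scaling. Hdgfl2 held 1042, 1218 and 1237 counts in WT and 135, 104 and 238 in HRP2-KO, so every library followed its label. The fitted log2 difference was -2.79 ± 0.32 (SE, adjusted p = 0.0711, edgeR's quasi-likelihood test with Benjamini-Hochberg adjustment). The labels name no batch, so an effect of one cannot be told apart from genotype. All 12 stromal markers listed (Prrx1, Pdgfra, Col1a1 and others) were present in every library. Their summed level was 5975 to 11336 CPM across WT and 22855 to 29478 CPM across HRP2-KO. That rise did not hold marker by marker. The fitted log2 difference was above 0 for 6 of the 12, with a median of -0.024. Their median ratio to the WT mean was 0.865, 1.13 and 0.694 in HRP2-KO replicates 6, 7 and 44. Macrophage RNA was also abundant and is given with the results it moves with. Y-linked Ddx3y was at 0 in WT 10 and HRP2-KO 6, at 1 count in HRP2-KO 7 and at 646 to 2321 counts in the other 3 libraries. Each group thus held libraries with and without Y-linked RNA, as from animals of both sexes, and the part of sex in the results was not tested.

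HRP2-KO replicate 7 held the highest level of 37 of the 40 members, against 14.5% of all tested genes. For 28 members it stood at least 2-fold above every other library, against 2.06% of all genes. The other HRP2-KO libraries lay on the opposite side: replicates 6 and 44 were both below all 3 WT libraries for 30 members, against 31.4% of all genes. The full order, with replicate 7 above all WT libraries and replicates 6 and 44 below them, held for the same count of 30 members, against 4.92% of all genes. The median member stood at 3.29 times the WT mean in replicate 7, at 0.479 in replicate 6 and at 0.532 in replicate 44. Over all tested genes the replicate 7 median was 1.002. The 3 WT libraries were close to each other by comparison, since their highest and lowest values were within 2-fold for 36 members and the median spread was 1.40-fold.

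**Figure D1:**
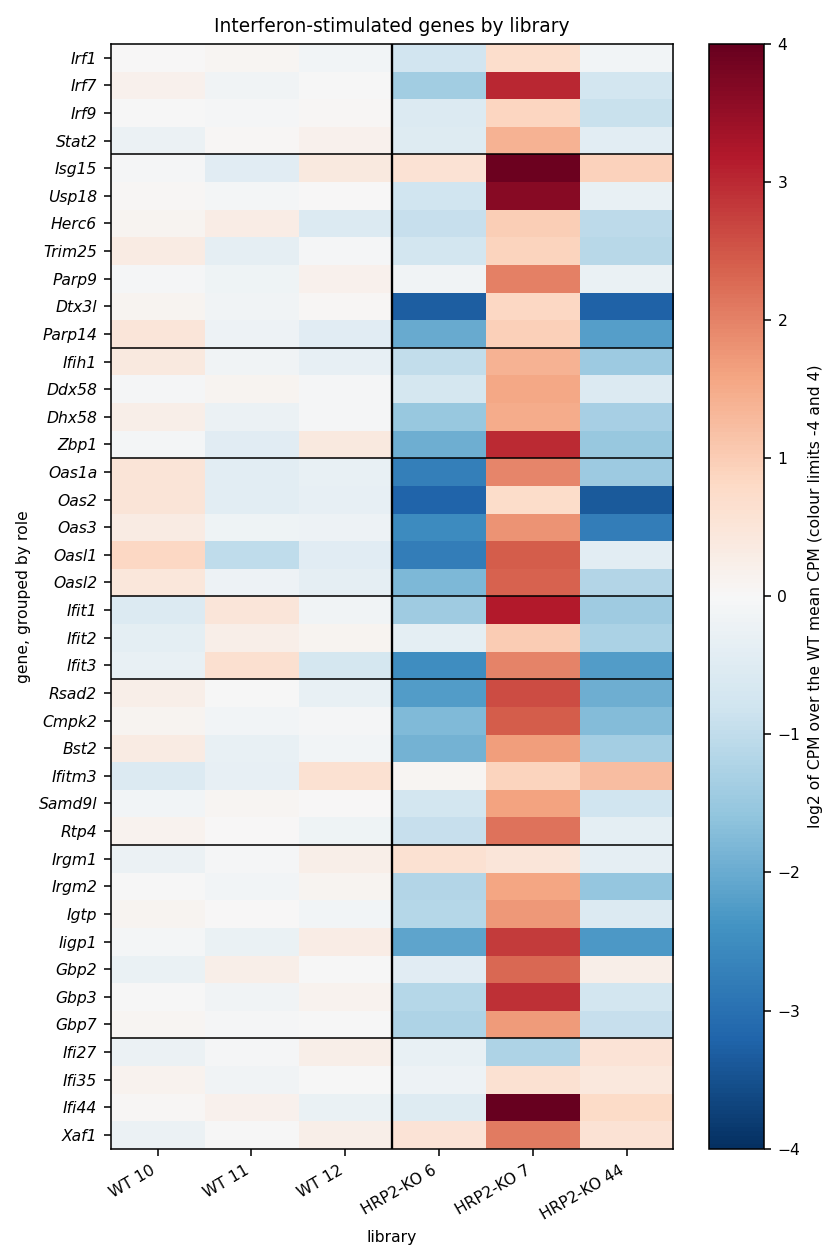
Colour gives the log2 of each library's CPM over the WT mean CPM for the 40 interferon-stimulated genes (rows, with lines between roles) in 3 WT and 3 HRP2-KO libraries (columns). The HRP2-KO 7 column is red for 39 genes, while the HRP2-KO 6 and 44 columns are mostly blue.

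No member passed the comparison of 3 HRP2-KO against 3 WT libraries. In edgeR's quasi-likelihood test, 0 of 40 members had an adjusted p under 0.05 (background 0.00730%, 1 gene of 13696), and the smallest member value was an adjusted p of 0.196 after Benjamini-Hochberg adjustment over all tested genes. At an unadjusted p under 0.05 there were 3 members, Isg15, Ifi44 and Xaf1, all higher, against 21.8% of all genes in either direction and 12.7% higher. DESeq2 gave no p for 15 members, Isg15, Ifit1 and Usp18 among them, and called 1 of the 25 others (Ifi44, log2 3.23, adjusted p = 0.0321), against 11.7% of the 13525 genes to which it gave a p. By limma voom 0 members were called, against 0.270%, and with sample quality weights 4 members were called, all lower, against 35.5%. The fitted log2 fold changes were above 0 for 34 members, against 51.0% of all genes, and their median was 0.51, against 0.015. The HRP2-KO SD exceeded the HRP2-KO mean for 27 members, and a fitted fold change here averages libraries that lay far apart.

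The few interferon messages that were analysed were low in these cultures. Of 21 ligand genes on the list, 5 were in the table (Ifna4, Ifnb1, Ifnk, Ifne and Ifnz) and none passed the filter on low counts. Ifnb1, which encodes interferon beta, had 1 count in HRP2-KO replicate 7 and 0 in the other libraries, where 0 counts allow up to 0.139 to 0.149 CPM (3 counts, counting error only). Ifna4 had 1 count, in HRP2-KO replicate 44. Ifnz, a type I interferon gene of mouse, had 5, 5, 6, 6, 11 and 6 counts. Ifng and the other 15 ligand genes were not analysed here, so their levels are not known.

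The receptors and kinases did not share the replicate 7 peak. All 9 were tested and none passed (edgeR, smallest adjusted p = 0.209). In edgeR 2 had an unadjusted p under 0.05, both lower, against 21.8% of all genes. Only Jak1 of the 9 was highest in replicate 7, against 14.5% of all genes. In both replicates 6 and 44, 7 of the 9 were below all WT libraries, against 31.4%. Jak1 held 6367, 5517 and 4564 counts in WT and 3024, 7298 and 1930 in HRP2-KO. Ifnar1 held 2526, 1677 and 1713 counts in WT and 1159, 1566 and 1023 in HRP2-KO, and after scaling replicate 7 lay inside the WT range while replicates 6 and 44 lay below it. The median ratio of the 9 genes to the WT mean was 0.901 in replicate 7, against 3.29 for the interferon-stimulated genes.

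The transcription factors of the pathway showed the replicate 7 peak in graded form. Irf7, the factor that amplifies interferon alpha production, had the widest range, with 390, 335 and 361 counts in WT and 135, 2634 and 211 in HRP2-KO. Stat2, the transactivating subunit of ISGF3 (chr10:128270498-128292853), had 804, 1045 and 1127 counts in WT and 673, 2323 and 709 in HRP2-KO. Irf9, its DNA-binding subunit, had 874, 913 and 942 counts in WT and 600, 1473 and 471 in HRP2-KO. All 3 were highest in replicate 7, at 8.17, 2.64 and 1.82 times the WT mean, and below WT in replicates 6 and 44. Irf1, which is also a target of interferon gamma, had 729, 801 and 700 counts in WT and 423, 1086 and 660 in HRP2-KO, the smallest peak of this class at 1.65 times the WT mean. Stat2 had a fitted log2 difference of 0.45 ± 0.54 (SE). Irf3, a related factor named after its values were seen, had 898, 868 and 865 counts in WT and 807, 686 and 1019 in HRP2-KO. It had no peak in replicate 7, and its values do not stand for the other STAT and IRF factors.

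Within the ISG15 system, Isg15 and Usp18 had tall peaks in replicate 7 and the ligases had small ones. ISG15 is a ubiquitin-like protein attached to other proteins during the response, and Isg15 (chr4:156199424-156200818) had 135, 111 and 192 counts in WT and 211, 1976 and 266 in HRP2-KO. Every HRP2-KO library was above every WT library, but replicate 7 was 8.01 times the next highest. The mean was 6.94 ± 1.97 CPM for WT (SD, n = 3) and 43.1 ± 54.3 CPM for HRP2-KO (SD, n = 3). The fitted log2 difference was 2.63 ± 0.96 (SE, adjusted p = 0.196 by edgeR's quasi-likelihood test with Benjamini-Hochberg adjustment). Usp18, which removes ISG15 and dampens IFNAR2 signalling, had 113, 109 and 116 counts in WT and 63, 1240 and 88 in HRP2-KO. Its WT libraries lay within a few counts of each other, replicate 7 was 11.9 times the next highest, and the fitted log2 difference was 2.20 ± 1.17 (SE). Herc6, the main ISG15 ligase of mouse, had 353, 434 and 234 counts in WT and 175, 600 and 157 in HRP2-KO. Trim25, a ubiquitin ligase that acts with RIG-I, had 1280, 855 and 1044 counts in WT and 620, 1749 and 478 in HRP2-KO. These ligases peaked at 1.99 and 1.85 times the WT mean, and for Trim25 the fitted log2 difference was -0.04 ± 0.54 (SE).

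The ADP-ribosylation genes on chromosome 16 split from each other in the low libraries. Dtx3l (chr16:35926515-35939027), the ubiquitin ligase partner of PARP9, had 453, 406 and 452 counts in WT and 43, 695 and 45 in HRP2-KO. Parp9 had 394, 391 and 486 counts in WT and 377, 1514 and 340 in HRP2-KO. Dtx3l therefore stood 9.91-fold and 9.32-fold below the WT mean in replicates 6 and 44, while Parp9 stood 1.09-fold and 1.19-fold below it. Their annotated spans overlap by 558 bases, and without stated strand use reads there cannot be assigned to one of them. Parp14, a mono-ADP-ribosyltransferase, had 1223, 812 and 671 counts in WT and 221, 1558 and 188 in HRP2-KO, low in both like Dtx3l. For Dtx3l the fitted log2 difference over all libraries was -0.59 ± 1.09 (SE).

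**Figure D2:**
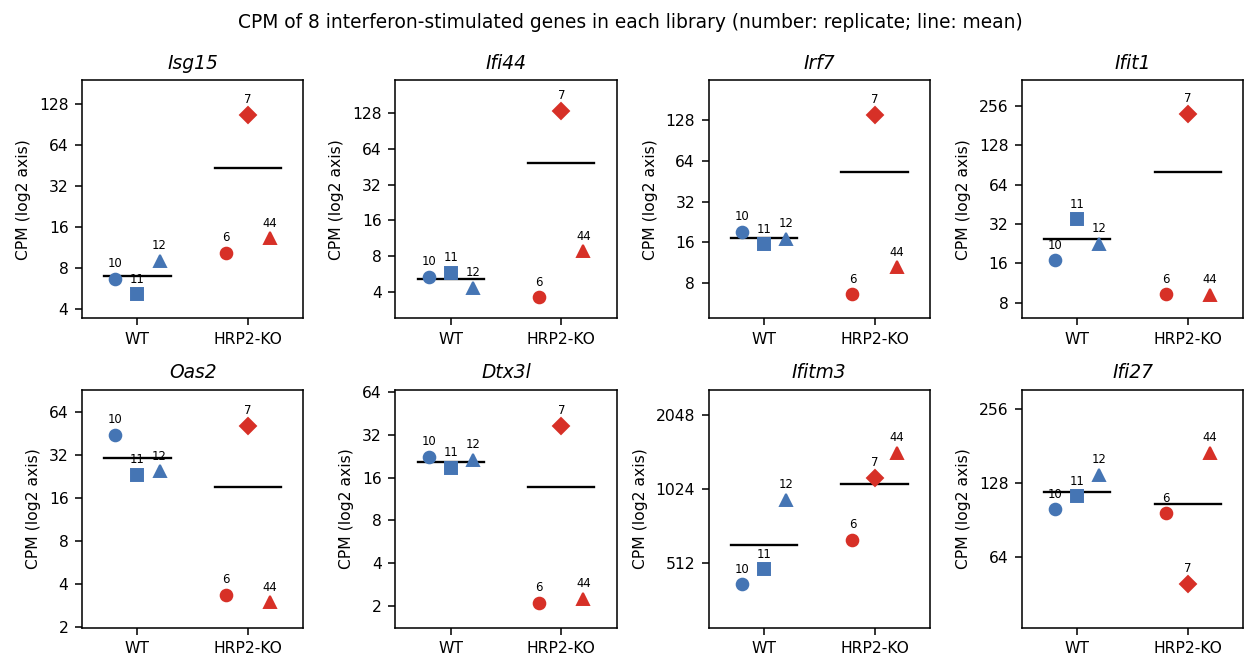
CPM on a log2 axis of 8 interferon-stimulated genes in each library, with replicate numbers above the points and a line at each group mean. In the first 6 panels HRP2-KO 7 is the highest point, whereas Ifitm3 and Ifi27 are highest in HRP2-KO 44.

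The cytosolic sensors, which detect viral nucleic acid and trigger interferon production, all stood above WT in replicate 7 and below it in the other HRP2-KO libraries. Ddx58, encoding RIG-I, had 1189, 1415 and 1256 counts in WT and 770, 3331 and 838 in HRP2-KO. Ifih1, encoding MDA5, had 648, 477 and 413 counts in WT and 254, 1213 and 180 in HRP2-KO. Dhx58, encoding LGP2, had 356, 272 and 306 counts in WT and 107, 780 and 120 in HRP2-KO. The 3 RIG-I-like genes peaked at similar ratios, 2.92, 2.65 and 2.81 times the WT mean. Zbp1, a sensor of Z-form nucleic acid that can start necroptosis, had 109, 90 and 158 counts in WT and 30, 841 and 40 in HRP2-KO, a taller peak of 7.95 times the WT mean. The fitted log2 difference of Ddx58 was 0.49 ± 0.62 (SE). Of 18 tested genes for other sensors and their adaptors, 4 were highest in replicate 7, against 14.5% of all genes. None of the 18 passed (edgeR, smallest adjusted p = 0.149). In edgeR 4 had an unadjusted p under 0.05, 3 of them lower, against 21.8% of all genes. In replicates 6 and 44, 14 of the 18 were below all WT libraries, against 31.4% of all genes. Their median ratios to the WT mean there were 0.351 and 0.259, against 0.479 and 0.532 for the members. Cgas, the cytosolic DNA sensor, had 95, 81 and 89 counts in WT and 126, 129 and 173 in HRP2-KO, above WT in every HRP2-KO library (edgeR adjusted p = 0.184). It was the only 1 of the 18 with that order, against 17.0% of all genes, and 3 had the reverse, against 14.0%.

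The oligoadenylate synthetases, which make the activator of RNase L, included some of the deeper lows in replicates 6 and 44. Oas2 (chr5:120730333-120749886) had 898, 501 and 523 counts in WT and 69, 951 and 60 in HRP2-KO. Its neighbour Oas3, 3211 bases away, had 511, 390 and 374 counts in WT and 73, 1317 and 60 in HRP2-KO. Oas1a had 600, 330 and 359 counts in WT and 64, 1481 and 153 in HRP2-KO. For Oas2, replicates 6 and 44 stood 9.12-fold and 10.3-fold below the WT mean, and for Oas3 they stood 5.69-fold and 6.82-fold below it. At the peak these genes parted, since replicate 7 was 1.15 times the highest WT library for Oas2 and 2.79 times for Oas3. The fitted log2 differences were -0.69 ± 1.10 for Oas2, the lowest of the 40 members, and 0.34 ± 1.18 for Oas3 (SE). Oasl2, an OAS-like gene, had 1131, 780 and 675 counts in WT and 242, 3931 and 366 in HRP2-KO, with a fitted log2 difference of 0.96 ± 1.07 (SE). Oasl1, which in mouse restrains IRF7 translation, was the lowest member per length and had 60, 18 and 26 counts in WT and 5, 167 and 25 in HRP2-KO, where HRP2-KO replicate 44 lay inside the WT range.

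The IFIT proteins bind foreign RNA and block its translation. Ifit1 (chr19:34640889-34650009) had 343, 750 and 479 counts in WT and 191, 4151 and 185 in HRP2-KO, and replicate 7 was 6.41 times the next highest library. Ifit3, which stabilises IFIT1 in human cells, had 786, 1626 and 629 counts in WT and 177, 3538 and 207 in HRP2-KO. Ifit2 had 442, 718 and 647 counts in WT and 442, 1076 and 241 in HRP2-KO. The peak over the WT mean was 8.99-fold for Ifit1, 3.96-fold for Ifit3 and 2.02-fold for Ifit2, and both other HRP2-KO libraries lay below WT for each gene, replicate 6 only barely for Ifit2. The fitted log2 difference of Ifit3 was 0.54 ± 1.19 (SE). Ifit3 has a close copy, Ifit3b, and the counting method is not given, so the division of reads between them is uncertain; the same holds for Oas1a with Oas1g, Ifitm3 with Ifitm2, and the guanylate-binding proteins among themselves.

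Among the other antiviral effectors, Ifitm3 departed from the pattern and the rest followed it. Rsad2, encoding viperin, which makes a chain-terminating nucleotide, had 83, 74 and 60 counts in WT and 15, 397 and 18 in HRP2-KO. Cmpk2, a nucleotide kinase gene 12664 bases from Rsad2, had 84, 77 and 79 counts in WT and 23, 379 and 23 in HRP2-KO. This pair ran in parallel, with peaks of 6.16 and 5.33 times the WT mean. Bst2, encoding tetherin, which holds budding virions at the membrane, had 2406, 1668 and 1838 counts in WT and 516, 5636 and 734 in HRP2-KO. Samd9l, a restriction factor for poxviruses, had 1191, 1442 and 1366 counts in WT and 783, 3576 and 727 in HRP2-KO. Rtp4, a chaperone-like protein with antiviral activity, had 673, 661 and 568 counts in WT and 328, 2525 and 462 in HRP2-KO. All 5 were highest in replicate 7 and below WT in both others. Ifitm3, which blocks virus entry at endosomes, had 8496, 10438 and 19570 counts in WT and 13022, 21186 and 28966 in HRP2-KO. It was highest in HRP2-KO replicate 44, the groups overlapped, and the fitted log2 difference was 0.81 ± 0.44 (SE).

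The immunity-related GTPases and guanylate-binding proteins, which attack the vacuoles of intracellular pathogens and respond strongly to interferon gamma, also peaked in replicate 7, apart from Irgm1. Iigp1 had 208, 196 and 287 counts in WT and 52, 1408 and 45 in HRP2-KO. Irgm2 had 460, 456 and 527 counts in WT and 207, 1279 and 157 in HRP2-KO. Its neighbour Igtp had 269, 267 and 240 counts in WT and 114, 770 and 169 in HRP2-KO. These 3 had the same layout of libraries, with Iigp1 at 6.88 times the WT mean in replicate 7. Gbp2 had 329, 498 and 406 counts in WT and 291, 1785 and 460 in HRP2-KO. Gbp3 had 157, 152 and 182 counts in WT and 72, 1094 and 95 in HRP2-KO. Gbp7, 9864 bases from Gbp3, had 180, 175 and 176 counts in WT and 74, 508 and 89 in HRP2-KO. Of these 3 guanylate-binding proteins, Gbp2 was not below WT in replicate 44. Irgm1, which in mouse restrains the other immunity-related GTPases, had 1633, 1976 and 2381 counts in WT and 2935, 2501 and 1475 in HRP2-KO. Replicate 6 was its highest library and replicate 44 its lowest, and the fitted log2 difference was 0.30 ± 0.30 (SE).

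The remaining members ranged from the tallest peak to the only trough in replicate 7. Ifi44 (chr3:151730922-151749910), which encodes an interferon-induced cytoplasmic protein, had 109, 125 and 92 counts in WT and 74, 2514 and 177 in HRP2-KO. Replicate 7 was 26.1 times the WT mean, the highest ratio of the 40 members, and the fitted log2 difference was 3.24 ± 1.33 (SE, adjusted p = 0.225 by edgeR's quasi-likelihood test with Benjamini-Hochberg adjustment). Xaf1, a pro-apoptotic partner of XIAP, had 197, 243 and 284 counts in WT and 344, 899 and 347 in HRP2-KO. It and Isg15 were the only 2 members with every HRP2-KO library above every WT library, against 17.0% of all genes, and 0 members had the reverse, against 14.0%. The fitted log2 difference of Xaf1 was 1.26 ± 0.46 (SE, adjusted p = 0.198 by edgeR's quasi-likelihood test with Benjamini-Hochberg adjustment). Ifi35, a partner of NMI, had 770, 686 and 739 counts in WT and 616, 993 and 934 in HRP2-KO, the smallest peak among the members highest in replicate 7, at 1.53 times the WT mean. Ifi27, a small protein of mitochondria and the nuclear envelope, had 2029, 2449 and 2931 counts in WT and 1973, 931 and 3423 in HRP2-KO. It was the only member below WT in replicate 7, at 0.425 of the WT mean, with a fitted log2 difference of -0.15 ± 0.43 (SE).

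Per length the members covered a wide range. Mean levels over the 6 libraries were 2716 TPM (the authors' values, scaled to transcript length) for Ifitm3, 286 for Bst2, 230 for Ifi27 and 101 for Irgm1, and these 4 were the only members at or above 100 TPM. The median member was at 20.6 TPM. Ifitm3, Ifi27 and Irgm1 are also the 3 members that were not highest in replicate 7. All 40 members summed to 2749, 3208 and 4727 TPM in WT and to 2977, 7151 and 4485 TPM in HRP2-KO. In that sum, replicates 6 and 44 lay inside the WT range and replicate 7 above it. Without Ifitm3 the members summed to 1303, 1340 and 1337 TPM in WT and to 768, 3521 and 733 TPM in HRP2-KO. Only with Ifitm3 left out were the WT sums nearly equal, with the HRP2-KO sums on either side of them.

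**Figure D3:**
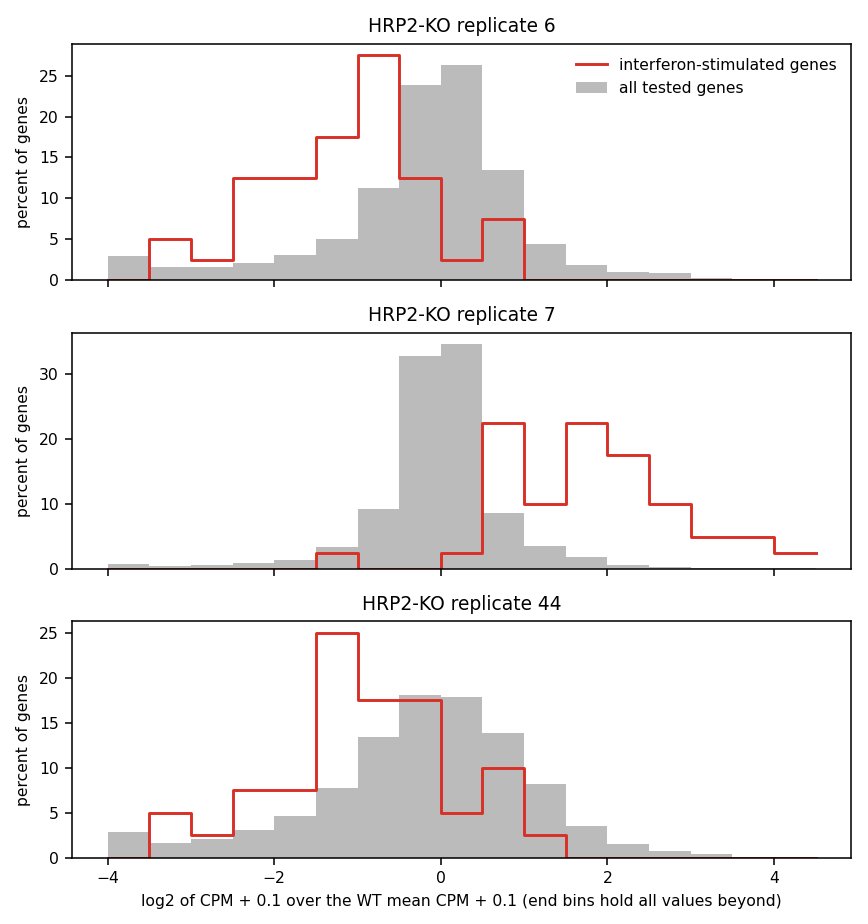
Percent of genes (vertical axis) by log2 of CPM + 0.1 over the WT mean CPM + 0.1 (horizontal axis, 0.5-wide bins) for each HRP2-KO library, with all 13696 tested genes in grey and the 40 interferon-stimulated genes outlined in red. The members lie to the right of the grey bulk in replicate 7 and to its left in replicates 6 and 44.

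Without HRP2-KO replicate 7, the comparison of the remaining HRP2-KO libraries with WT had members lower and none higher. In edgeR's quasi-likelihood test with Benjamini-Hochberg adjustment, 19 members fell and 0 rose at an adjusted p under 0.05 (background 24.1%, 1676 lower and 1694 higher of 13983 tested genes). The median fitted log2 fold change was -0.91, and 29 members changed sign relative to the fit on all libraries. Those that fell were Irf9, Dtx3l, Parp14, Ifih1, Dhx58, Zbp1, Oas1a, Oas2, Oas3, Oasl2, Ifit1, Ifit3, Rsad2, Cmpk2, Bst2, Samd9l, Irgm2, Iigp1 and Gbp7. By class, that was 4 of 5 OAS genes, 3 of 4 sensors, 2 of 3 IFIT genes, 4 of 6 other antiviral effectors, 3 of 7 GTPases, 2 of 7 ISG15 and ADP-ribosylation genes, 1 of 4 factors and 0 of 4 others. The size was greatest for Oas2 at -3.23 ± 0.38 and for Dtx3l at -3.22 ± 0.25 on the log2 scale (SE, adjusted p of 0.0152 and 0.0148 by edgeR). Isg15 (0.80 ± 0.33, adjusted p = 0.117 by edgeR) and Ifitm3 (0.82 ± 0.50, adjusted p = 0.256 by edgeR) had the highest fitted values. Genes outside the members also fell without replicate 7 (edgeR, adjusted p under 0.05). Among them were 11 of 18 other sensors and adaptors and 3 of 9 receptors and kinases, and 0 of either list rose. Of 13 macrophage markers, 10 fell and 0 rose. The median fitted log2 fold change of those markers was -3.02, against -0.91 for the members. Leaving out replicate 44 or replicate 6 called 0 members, and 4 and 6 members then had an unadjusted p under 0.05, against 17.1% and 14.0% of all genes.

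**Figure D4:**
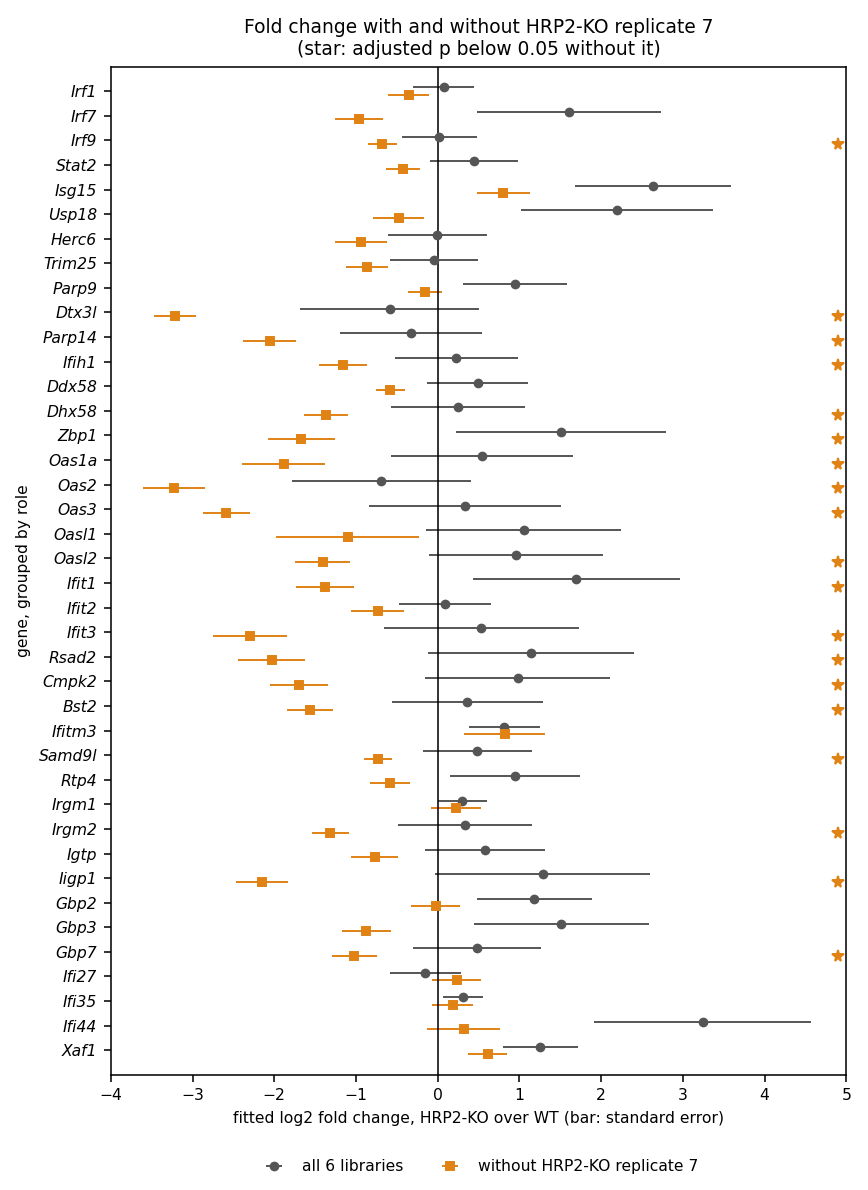
Fitted log2 fold change of HRP2-KO over WT (horizontal axis) with its standard error for each of the 40 members, from all 6 libraries (grey) and without HRP2-KO replicate 7 (orange). Stars mark the 19 members with an adjusted p below 0.05 without it, all to the left of 0.

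Many interferon-responsive genes outside the member list were also highest in replicate 7. Of 54 tested genes on a list of other interferon-stimulated genes, 36 were highest in replicate 7, against 14.5% of all genes. In both other HRP2-KO libraries 39 were below WT, against 31.4% of all genes. Replicate 7 was above all WT libraries and both others below them for 29, against 4.92%. None passed over all libraries (edgeR, smallest adjusted p = 0.0913; 6 at an unadjusted p under 0.05, against 21.8% of all genes). Without replicate 7, 22 fell and 3 rose, against 24.1% of all genes called in either direction. Lgals3bp, a secreted glycoprotein, reached 1469 CPM in replicate 7, against 355 to 520 CPM in WT. Rnf213, a large ubiquitin ligase, reached 427 CPM, against 108 to 125 CPM. The 3 that rose without replicate 7 were Slfn9, Isg20 and Tgtp2, named after their values were seen. Slfn9 was at 11.9, 11.7 and 12.6 CPM in WT and 31.0, 53.9 and 33.0 CPM in HRP2-KO. Its level was above WT in every HRP2-KO library.

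Antigen presentation genes and chemokines were also mostly highest in replicate 7. Of 13 tested MHC and chemokine targets, 10 were highest in replicate 7, against 14.5% of all genes. In both other HRP2-KO libraries 6 were below WT, against 31.4% of all genes. None passed (edgeR, smallest adjusted p = 0.124), and 2 had an unadjusted p under 0.05 in edgeR, against 21.8% of all genes. B2m, the common light chain of class I molecules, was at 818 to 1131 CPM in WT and at 493, 2640.4 and 657 CPM in HRP2-KO. H2-D1, a class I heavy chain, was at 460 to 926 CPM in WT and at 158, 1243 and 209.97 CPM in HRP2-KO. Cxcl10, a chemokine induced by both interferon types, had 24, 70 and 27 counts in WT and 10, 233 and 36 in HRP2-KO. Among 17 tested brakes on the response, 7 were highest in replicate 7, against 14.5% of all genes, and none passed (edgeR, smallest adjusted p = 0.0982). In edgeR 4 of them had an unadjusted p under 0.05, against 21.8% of all genes. Socs1, the feedback inhibitor of JAK kinases, had 55, 76 and 114 counts in WT and 122, 205 and 123 in HRP2-KO (edgeR adjusted p = 0.224).

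Macrophage markers moved with part of this layout. All 13 (Csf1r, Adgre1, Lyz2, C1qa and others) were tested and none was at 0 in any library. Their sum was 9385 to 23882 CPM across WT, 1206 CPM in HRP2-KO replicate 6, 13451 CPM in replicate 7 and 2464 CPM in replicate 44. Of the 13 markers, 11 were below all WT libraries in both replicates 6 and 44, against 31.4% of all genes. Most members were low in the same libraries. The median ratio of the 13 markers to the WT mean was 0.0721 in replicate 6 and 0.1545 in replicate 44. For the members it was 0.479 and 0.532. The part of these markers in the low levels was not tested. In replicate 7 the summed level lay inside the WT range while the median member was at 3.29 times the WT mean, and Adgre1, Itgam and Fcgr1 were above every WT library there. In bulk RNA, fewer cells of a type and less RNA per cell cannot be told apart. Summed markers of neutrophils reached at most 6.53 CPM, those of NK cells 5.13 CPM and those of endothelium 19.99 CPM, no T, B or erythroid marker passed the filter on low counts, and Siglech of plasmacytoid dendritic cells was at or under 3 counts while Il3ra of the same list was at 24.8 to 50.9 CPM.

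**Figure D5:**
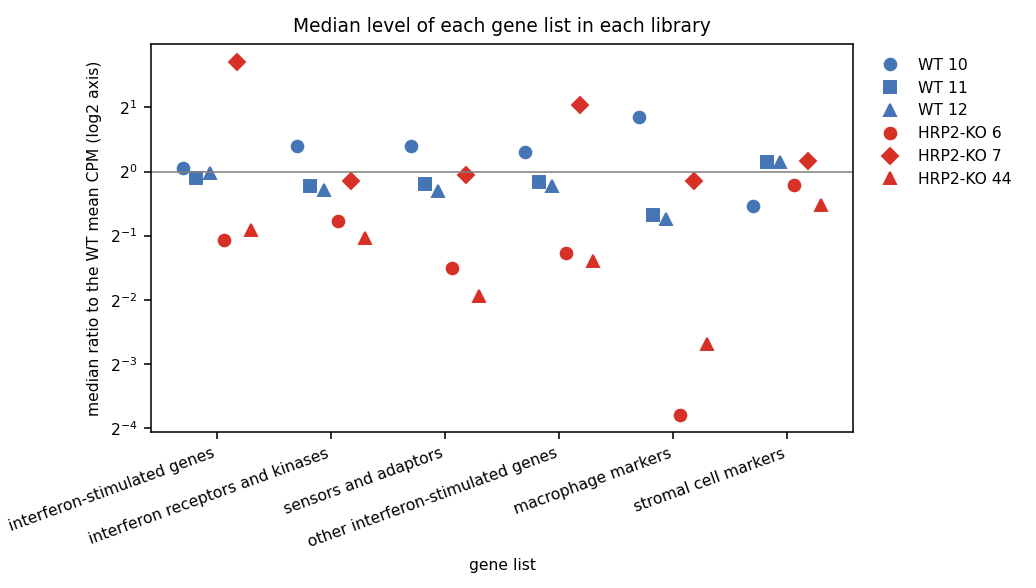
Median ratio of each library's CPM to the WT mean CPM (vertical, log2 axis) over the tested genes of 6 lists (horizontal), with WT libraries in blue and HRP2-KO libraries in red. HRP2-KO 7 is the top point for the members (3.29), for the other interferon-stimulated genes (2.06) and, narrowly, for stromal cell markers (1.13, against 1.11 in WT 11). It lies among the WT points for receptors, sensors and macrophage markers.

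Transcript length moved with the levels of HRP2-KO replicate 44. Over all tested genes this library deviated by 0.55 on the log2 scale in the shortest of 5 length groups and by -0.49 in the longest, while the largest deviation in the other 5 libraries was 0.17. The median ratio of members to the WT mean in replicate 44 was 1.33 for the 9 in the shortest group and 0.475 for the 8 in the longest. The shortest group was itself divided in replicate 44, from 0.351 for Zbp1 to 2.36 for Ifitm3. Isg15, Xaf1, Ifi27, Ifi35 and Ifitm3 were above the WT mean there, and Oas1a, Bst2, Zbp1 and Rtp4 were below it. In replicate 6, which had no such slope, the medians of the shortest and longest groups were 0.822 and 0.517. The part of length in the replicate 44 values was not tested.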

How the data were processed

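RNA was measured in 3 WT and 3 HRP2-KO samples, grouped by the genotype label and numbered by title. RNA was isolated with Trizol, per the labels' protocols. Reads went through BWA (no version given) with build GRCm38.p6, per the submitters' processing notes. The assignment of reads to genes and the use of strand: not given in the sources used here. The authors deposited estimated counts per gene without normalization, TPM values scaled to length and a common total, and FPKM values scaled to length and depth, per the file headers. A further 30 columns (6 normalized, 24 averages) were not used.

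Estimated counts were rounded. Genes were filtered with filterByExpr (minimum count 10, minimum total 15), scaled by TMM and tested with edgeR 4.0.16 (R 4.3.3), quasi-likelihood F-test on genotype, two-sided, Benjamini-Hochberg over 13696 genes, threshold 0.05. CPM uses TMM-scaled library sizes. Length is the ratio of counts to FPKM. Library pairs of one group differed by more than counting noise (smallest chi-square per degree of freedom 49.9). The fit was tested on simulated data in which every HRP2-KO library was given the same change. That test does not cover a library set apart from its group, as HRP2-KO replicate 7 was. Alternatives used limma 3.58.1, DESeq2 1.42.0, other scalings and filters, TPM values, and each replicate left out.

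Members, roles and lists were chosen with earlier results of these data known. Values in every library are given for all 40 members. Of each other list, up to 4 genes with the largest mean CPM, plus Ifnb1 and Ifng, could be named, and 1 further gene is not reported here. Others of those lists (Ifna4, Ifnz, Ifnar1, Irf3, Cgas, Cxcl10, Socs1, Slfn9, Isg20 and Tgtp2 among them) were chosen after their values were seen. Promoters come from RefSeq (GRCm38.p6). Figures were drawn with matplotlib 3.10.9.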

Additional observations from a re-analysis of the deposited data

How the results depend on the processing

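Within these 6 libraries the result for the interferon-stimulated genes depended most on HRP2-KO replicate 7. Leaving out each replicate in turn gave 0 to 3370 genes and 0 to 19 members at an adjusted p under 0.05, and a median member log2 fold change from -0.91 to 0.94. The upper counts and the negative median came without replicate 7. Without replicate 44 no gene was called. RLE factors, upper-quartile factors, no filter and a filter of 1 CPM in 3 libraries each called 1 gene and 0 members, with medians of 0.46 to 0.51. DESeq2 called 1579 genes and 1 member (15 members had no p), limma voom 37 genes and 0 members, limma voom with sample quality weights 4865 genes and 4 members (all lower), log2(TPM + 1) 42 genes and log2(TPM + 0.1) 27 genes, both with 0 members. The medians of the last 4 were -0.17, -0.78, -0.18 and -0.34, where the median of all genes moved by -0.22 and -0.25 on the TPM scales.

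Leaving out single replicates moved the fitted log2 fold change of Ifit3 from -2.30 to 1.03, Stat2 from -0.43 to 0.75, Usp18 from -0.48 to 2.69, Oas3 from -2.59 to 0.83, Oasl2 from -1.41 to 1.44, Ifi27 from -0.68 to 0.23, Ddx58 from -0.58 to 0.83 and Trim25 from -0.87 to 0.27. Signs also turned with voom (Ifit3 -0.81, Oas3 -1.18, Oasl2 -0.18), with quality weights (Ifit3 -2.27, Stat2 -0.40, Usp18 -0.35, Oas3 -2.04, Oasl2 -1.23, Ifi44 -0.017, Ddx58 -0.54), with log2(TPM + 1) (Ifit3 -0.96, Stat2 -0.072, Oas3 -0.95, Oasl2 -0.36, Ddx58 -0.13) and with log2(TPM + 0.1) (Ifit3 -1.02, Stat2 -0.085, Oas3 -1.33, Oasl2 -0.41, Ddx58 -0.15). The cause was not tested. No paired analysis was possible because the groups share no replicate number.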
